A study of Mus musculus with 20 samples.

Results

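The 9 genes described here serve the handling of organic osmolytes and the response of cells to tonicity. They were taken by symbol from the table of normalized gene counts: the carrier genes Slc6a12, Slc5a3, Slc6a6 and Slc38a2, the enzyme gene Akr1b3, the regulators Nfat5 and Sgk1, the chaperone gene Hspa4l and the sodium pump subunit gene Fxyd2. All 9 were among the 14456 genes listed. The members were chosen by role and on their measured difference between high and normal glucose. Their values in that comparison are therefore a description without a test. As far as the rule of choice tells, the exosome libraries were not used to choose the members, and they give a test. Earlier results of these data were known, however. The study cultured bone marrow-derived macrophages (BMDM), which are macrophages grown from mouse marrow with the growth factor M-CSF, from C57BL/6 mice. The paper's culture methods give an age of 8 weeks. Its section on primary cells instead names male mice over a range of ages that begins at 8 weeks. In the first experiment the medium held 25 mM glucose (high glucose) or 5.5 mM glucose and 19.5 mM mannitol (normal glucose) for 24 h, with 4 libraries in each group. Mannitol, a sugar alcohol added as the osmotic control, was thus present only in the normal glucose group of this experiment. In the second experiment BMDM were given PBS, or exosomes from normal glucose BMDM (BMDM-NG-exo) or exosomes from high glucose BMDM (BMDM-HG-exo) for 24 h, with 4 libraries in each group. The exosome dose was 2000000000 particles per ml, and the sources used here give neither a glucose nor a mannitol concentration for the recipient cultures. The labels do not tie a library to an animal, so that p-values measure the spread between libraries, which may be technical in the glucose experiment. For the exosome experiment the paper states that samples came from separate exosome preparations, and the labels give 4 dates. Whether the recipient cells came from different animals is not given.

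When the medium becomes hypertonic, water leaves a cell, and the cell restores its volume first with inorganic ions and then with organic osmolytes such as betaine, myo-inositol, taurine, neutral amino acids and sorbitol. The transcription factor NFAT5, also called TonEBP, binds tonicity-responsive enhancer elements and raises the genes of osmolyte carriers and of aldose reductase. Its activity is controlled in part after translation, through its location and its abundance as a protein, which a transcript level does not show. NFAT5 is best known from the renal medulla, and macrophages also contain it.

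Promoter sequence is shown for 3 members because their transcripts differed between groups in the comparisons that follow and because 2 of them hold the core of the NFAT5 binding element. The choice thus rests in part on the match, and the window of Slc38a2, whose transcript also differed, is not shown. RefSeq start sites (GRCm38.p6) were available for Slc6a12, Slc5a3, Slc38a2, Nfat5, Sgk1 and Hspa4l, 6 of the 9 members, and the other 3 are named only. The 250 bases before each start were searched on both strands for the core TGGAAA and for the longer TonE consensus of 11 bases that contains it. In the sequences that follow, written 5′ to 3′ and ending at the base before the start, capitals mark the match.
Slc6a12, first start site, chr6:121342324-121342573, plus strand: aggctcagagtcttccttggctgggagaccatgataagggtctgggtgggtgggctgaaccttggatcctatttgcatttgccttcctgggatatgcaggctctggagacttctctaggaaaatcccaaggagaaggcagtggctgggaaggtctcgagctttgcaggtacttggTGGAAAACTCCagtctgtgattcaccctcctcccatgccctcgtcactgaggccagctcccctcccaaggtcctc
Slc5a3, chr16:92058072-92058321, plus strand: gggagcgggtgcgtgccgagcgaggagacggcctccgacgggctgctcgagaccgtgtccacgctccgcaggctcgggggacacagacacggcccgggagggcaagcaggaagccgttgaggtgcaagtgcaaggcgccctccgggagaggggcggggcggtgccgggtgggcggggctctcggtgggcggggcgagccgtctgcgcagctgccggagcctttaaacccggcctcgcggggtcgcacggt
Sgk1, first start site, chr10:21881934-21882183, plus strand: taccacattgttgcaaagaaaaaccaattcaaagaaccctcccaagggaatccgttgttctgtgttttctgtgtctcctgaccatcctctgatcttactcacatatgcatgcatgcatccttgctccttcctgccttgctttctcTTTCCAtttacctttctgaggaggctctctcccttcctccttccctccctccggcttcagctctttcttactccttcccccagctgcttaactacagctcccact
The Slc6a12 window holds TGGAAAACTCC, a full consensus match, from 75 to 65 bases before the start. The first Sgk1 window holds the core on the opposite strand, read here as TTTCCA from 105 to 100 bases before the start, and the window of its start site 5 holds it on the plus strand from 163 to 158 bases before. The Slc5a3 window holds neither, and the windows of Slc38a2, Nfat5 and Hspa4l, which are not shown, hold neither as well. The windows of start sites 2 to 5 of Slc6a12 and of start sites 2, 3, 4 and 6 of Sgk1 also hold neither. For Slc6a12, GENCODE M21 places the gene start at base 121343076, downstream of the first start site. The window that ends directly before that base, of start site 3, is thus among those without a match. Of 15 windows of the 6 members, 3 held the core and 1 the consensus. Over 32851 promoter windows of the same length, 18.6% held the core and 4.31% the consensus. The matches describe letters in these windows only.

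The read totals of the groups overlapped. The reads behind the normalized counts added up to between 34016445 and 56310712 per library (median 43311931), and the 9 genes had from 45 reads, for Slc6a12 in normal glucose library 5, to 66648 reads, for Slc6a6 in BMDM-NG-exo library 1. The labelled cell type was borne out by its markers: all 10 macrophage markers looked for were listed, against 8 of 26 markers of other cell types, whose summed level lay between 226 and 520 normalized counts in every library. The summed macrophage markers, led by the lysozyme gene Lyz2, ran from 648539 to 724076 normalized counts in normal glucose and from 827641 to 897601 in high glucose. In the exosome experiment the PBS libraries had 813459 to 859714, the BMDM-NG-exo libraries 736064 to 791943 and the BMDM-HG-exo libraries 752726 to 776559. The single markers did not all go the way of the sum: in high glucose 6 of the 10 had a higher mean than in normal glucose and 4 a lower mean, the latter being Mrc1, Mertk, Cd68 and Itgam. With either exosome 7 of the 10 had a lower mean than with PBS and 3 a higher mean. The part of these differences in the results was not tested. In bulk libraries, fewer cells of a type and less RNA per cell cannot be told apart.

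The members differed widely in level. Per kilobase of exon, and taking the PBS libraries, the taurine carrier gene Slc6a6 stood at 6132 normalized counts, above Sgk1 at 603.1, Slc38a2 at 547.3, Fxyd2 at 540.0, Nfat5 at 311.5, Akr1b3 at 305.0, Slc5a3 at 218.5, Hspa4l at 160.2 and Slc6a12 at 98.74. The betaine carrier gene was thus the lowest of the 9 in this group and the taurine carrier gene the highest. The spread between libraries of a group was widest for Slc6a12 in 4 of the 5 groups, PBS excepted, with coefficients of variation from 11.9% to 36.9%. It was narrowest for Slc6a6 in all 5, with 1.26% to 3.81%.

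**Figure D1:**
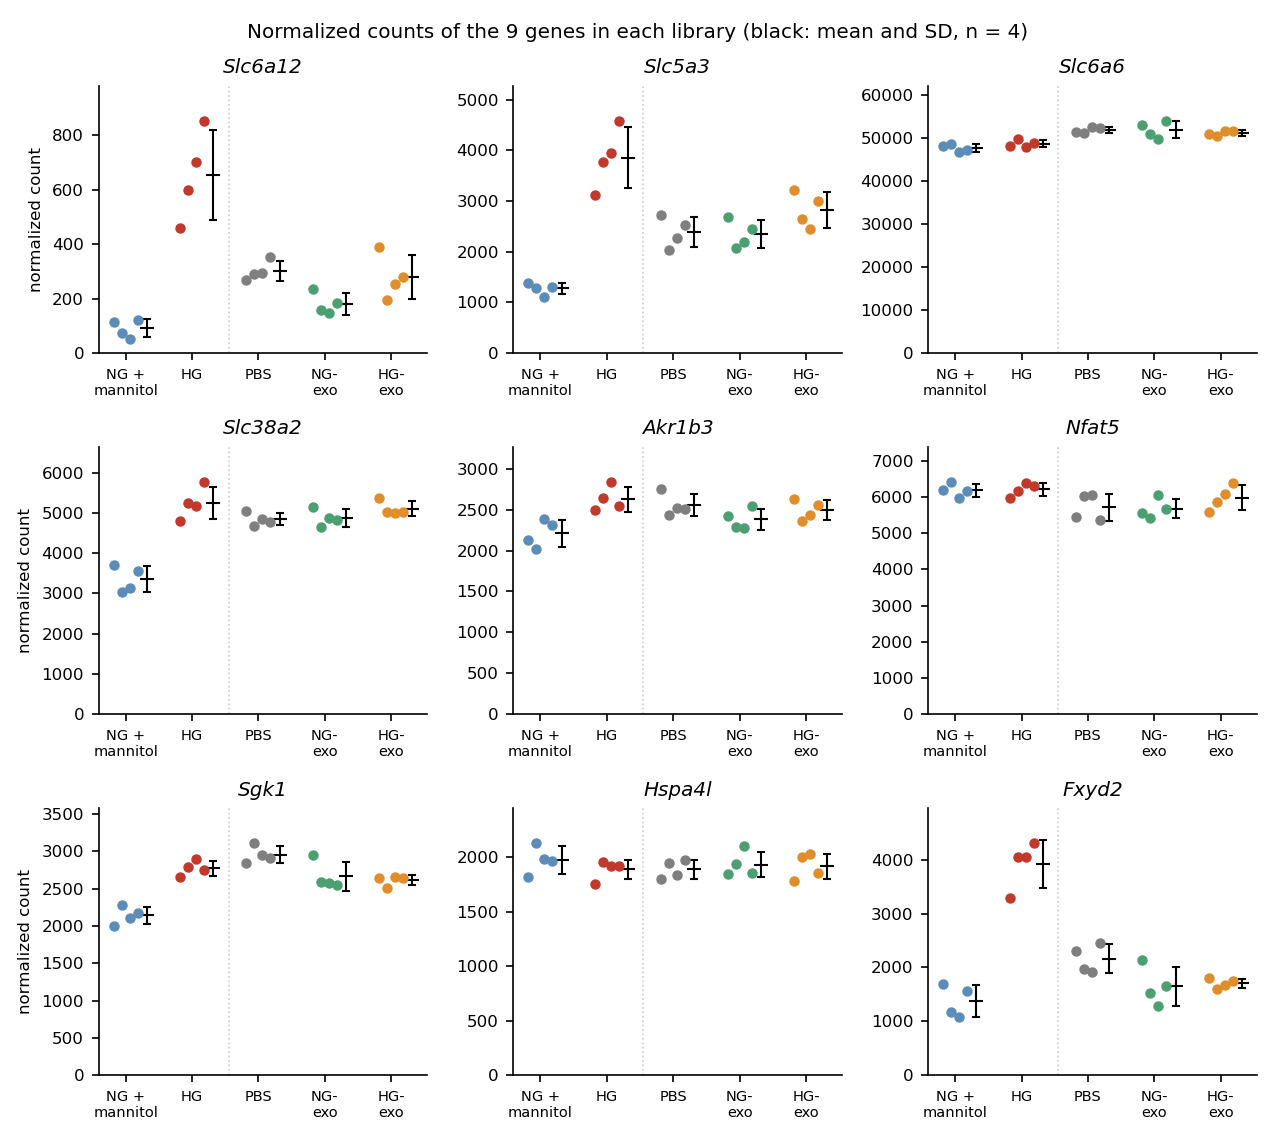
Normalized counts of the 9 genes, 1 panel per gene, in each of the 20 libraries (points) by group, with the group mean and SD (n = 4) in black; each axis starts at 0, and a dotted line separates the glucose from the exosome experiment. High and normal glucose lie furthest apart for Slc6a12, Slc5a3 and Fxyd2 and overlap for Slc6a6, Nfat5 and Hspa4l.

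The question of the first experiment for these genes is how they differed between high glucose and the mannitol-matched control. The largest difference was that of Slc6a12, the carrier of betaine and GABA, whose gene lies on chromosome 6 from 121343076 to 121365775 (GRCm38, plus strand). Its 4 normal glucose libraries had 115, 74.7, 51.6 and 122 normalized counts (libraries 1, 3, 5 and 6). Its 4 high glucose libraries had 460, 601, 702 and 853 (libraries 1, 2, 4 and 6). The lowest high glucose library was well above the highest normal glucose library. The means were 653.8 ± 165.8 and 90.94 ± 33.55 (SD, n = 4 each), a log2 fold change of 2.88 (standard error 0.194), or 7.35-fold.

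Slc5a3, the sodium-coupled carrier of myo-inositol, had 1388, 1291, 1114 and 1306 normalized counts in the normal glucose libraries. The high glucose libraries had 3124, 3780, 3946 and 4583. The groups were far apart, with a log2 fold change of 1.59 (standard error 0.0736), or 3.01-fold. The gene lies on chromosome 16 from 92058322 to 92087473 (GRCm38, plus strand) and shares 159 of its 10913 exon bases with Mrps6 on the same strand, so that a small part of its reads could be split between both. Slc38a2, which carries small neutral amino acids with sodium, had 3714, 3027, 3125 and 3562 normalized counts in the normal glucose libraries and 4800, 5252, 5168 and 5772 in those of high glucose. Here too every high glucose library was above every normal glucose library, with a smaller log2 fold change of 0.65 (standard error 0.0554). Slc6a6, the taurine carrier gene, ran from 46704 to 48584 normalized counts in normal glucose and from 47838 to 49747 in high glucose. These ranges overlapped, and the log2 difference was 0.03 (95% interval -0.03 to 0.09) and turned to -0.11 under quantile normalization. Slc6a6 shares 117 exon bases with the listed gene Gm44981 on the opposite strand, which counting by strand keeps apart. Among the 4 carrier genes, the difference was thus largest for the gene with the lowest level and smallest for the gene with the highest.

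The remaining members fell into the same kinds. Fxyd2, on chromosome 9 from 45399669 to 45410278 (GRCm38, plus strand), encodes the gamma subunit that modulates the sodium pump in the kidney. It had 1687, 1164, 1075 and 1569 normalized counts in the normal glucose libraries and 3286, 4045, 4057 and 4316 in those of high glucose. The groups did not overlap, and the log2 fold change was 1.53 (standard error 0.0893), or 2.89-fold. Sgk1, the serum- and glucocorticoid-regulated kinase that acts on ion channels and carriers, had between 2002 and 2285 normalized counts in normal glucose and between 2655 and 2903 in high glucose, a log2 difference of 0.37 (standard error 0.0516). Akr1b3 encodes aldose reductase, which turns glucose into the osmolyte sorbitol. It ran from 2016 to 2384 normalized counts in normal glucose and from 2492 to 2842 in high glucose, a log2 difference of 0.25 (standard error 0.0557), the smallest among the members whose groups did not overlap.

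The transcript of the regulator itself was level. Nfat5 ran from 5984 to 6422 normalized counts in normal glucose and from 5988 to 6385 in high glucose, with a log2 difference of 0.01 (95% interval -0.07 to 0.09). Hspa4l, which encodes a chaperone of the HSP110 family known to rise with osmotic stress, ran from 1817 to 2132 in normal glucose and from 1756 to 1956 in high glucose. Its log2 difference was -0.06 (95% interval -0.18 to 0.05).

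Of the 9 members, 6 had every high glucose library above every normal glucose library and none the reverse. Over all genes tested, 9.18% had the former arrangement. Since the members were chosen with this comparison known, nothing is read from that difference. The median log2 fold change was 0.37 over the members and -0.0031 over all 14425 genes tested, of which the 5th and 95th percentiles were -0.553 and 0.405. Slc6a12, Slc5a3, Fxyd2 and Slc38a2 lay above the latter and Sgk1, at 0.37, just below it. Within the high glucose group, library 1 was the lowest in 8 of the 9 members, Slc6a6 excepted, and library 6 was the highest in 4, namely Slc6a12, Slc5a3, Slc38a2 and Fxyd2. Library 5 was the lowest of the normal glucose group in 5 members. Leaving out single libraries kept the log2 fold change of Slc6a12 between 2.64 and 3.05, that of Slc5a3 between 1.5 and 1.69 and that of Fxyd2 between 1.42 and 1.64.

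The PBS libraries belong to the other experiment and received no exosomes, and their medium is not described in glucose or mannitol. Differences between the experiments in culture, date or medium cannot be told apart from those between groups, so the levels are set side by side without a test. Against the PBS mean of 301.4 normalized counts (SD 35.87, n = 4), Slc6a12 was at 0.302 times in normal glucose and at 2.17 times in high glucose. For Slc5a3 the ratios to PBS were 0.535 and 1.62, and for Fxyd2 they were 0.635 and 1.82. These 3 genes were thus below the PBS level in normal glucose and above it in high glucose, in every library. Slc38a2 and Sgk1 were different: they stood at 0.694 and 0.724 times PBS in normal glucose but at 1.09 and 0.939 times in high glucose, where the libraries overlapped those of PBS. Akr1b3 was at 0.865 times PBS in normal glucose and at 1.03 times in high glucose, also with overlap in the latter.

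In all, 7 of the 9 members had every normal glucose library below every PBS library, which 10.4% of all genes with a mean of at least 10 had. In high glucose 3 members were above every PBS library, against 6.91% of all genes, and Slc6a6 was below, as 7.55% of all genes were. The choice of members used their values in both glucose groups, so nothing is read from the differences between these shares. The 7 members included Slc6a6, whose normal glucose mean was 0.919 times that of PBS and whose high glucose mean was 0.939 times. Nfat5 and Hspa4l overlapped PBS in both glucose groups.

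**Figure D2:**
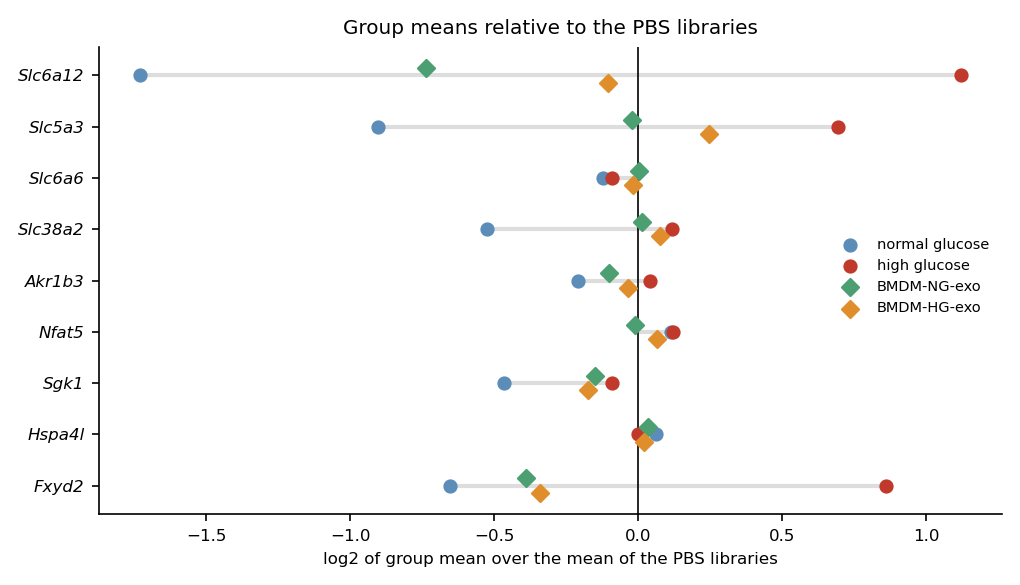
Log2 ratio of each group's mean normalized count to the mean of the 4 PBS libraries (vertical line at 0) for the 9 genes, with circles for the glucose experiment and diamonds for the exosome experiment. Normal glucose lies far to the left for Slc6a12, Slc5a3, Fxyd2, Slc38a2 and Sgk1, and high glucose lies to the right only for Slc6a12, Slc5a3 and Fxyd2 by more than 0.5; ratios between the experiments were not tested.

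In the order of the 5 group means, normal glucose was the lowest for Slc6a12, Slc5a3, Slc38a2, Akr1b3, Sgk1, Fxyd2 and Slc6a6. For Slc6a12 the order went on with BMDM-NG-exo, BMDM-HG-exo, PBS and high glucose, with means of 180.8, 280.0, 301.4 and 653.8 normalized counts. The outer neighbours in that order did not overlap, whereas BMDM-HG-exo overlapped both BMDM-NG-exo and PBS. For Slc5a3 the order was BMDM-NG-exo at 2347, PBS at 2384, BMDM-HG-exo at 2823 and high glucose at 3859. In it every neighbour above normal glucose overlapped the next. For Sgk1 the order was BMDM-HG-exo at 2618, BMDM-NG-exo at 2666, high glucose at 2775 and PBS at 2957, again with overlap between all neighbours above normal glucose.

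The second experiment asks whether the source of exosomes changes recipient BMDM, and its libraries give a test of the members. Here a call means an adjusted p under 0.05 (limma on log2 values, Benjamini-Hochberg over every gene tested) together with a log2 fold change of 0.15 or more in size. Slc6a12 and Fxyd2 were lower with BMDM-NG-exo than with PBS. Slc6a12 had 268, 289, 296 and 352 normalized counts with PBS and 237, 157, 145 and 184 with BMDM-NG-exo, so that every BMDM-NG-exo library was below every PBS library. This is a log2 fold change of -0.75 (limma standard error 0.171 and adjusted p = 0.00601, n = 4 each), or 0.594-fold. The labels give 4 dates, each shared by 1 library of each group, and on every date the BMDM-NG-exo library was below the PBS library, at 0.882, 0.543, 0.492 and 0.522 times. The call held in all 12 fits that left out 1 library, with edgeR (adjusted p = 0.00674) and with DESeq2 (adjusted p = 0.00275), but was lost without a mean-variance trend (limma adjusted p = 0.165).

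Fxyd2 had 2305, 1976, 1906 and 2463 normalized counts with PBS and 2146, 1520, 1285 and 1646 with BMDM-NG-exo. The groups overlapped through BMDM-NG-exo library 1, but on each of the 4 dates the exosome library was the lower, at 0.668 to 0.931 times. The difference on the log2 scale was -0.41 (limma standard error 0.0913 and adjusted p = 0.0052), and it missed the threshold without BMDM-NG-exo library 3 (adjusted p = 0.0566, limma), without a trend (adjusted p = 0.27, limma) and with DESeq2 (adjusted p = 0.114). With these, 2 of the 9 members were called for BMDM-NG-exo against PBS, where 3.0% of all genes were. Sgk1 had a log2 difference of -0.15 (standard error 0.0517, adjusted p = 0.119, limma), which was called only without BMDM-NG-exo library 1 (adjusted p = 0.0216, limma) among the fits that left out a library.

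BMDM-HG-exo against PBS gave 2 called members as well, Fxyd2 and Sgk1, where 4.84% of all genes were called. Fxyd2 had 1797, 1608, 1681 and 1746 normalized counts with BMDM-HG-exo, all below the lowest PBS library. The difference on the log2 scale was -0.33 (limma standard error 0.0913 and adjusted p = 0.0208), and on the 4 dates its level was 0.709 to 0.882 times that of PBS. Sgk1 had 2851, 3116, 2950 and 2910 normalized counts with PBS and 2649, 2514, 2661 and 2649 with BMDM-HG-exo. These groups did not overlap either, and their log2 difference was -0.17 (limma standard error 0.0517 and adjusted p = 0.0369), close to the limit of 0.15. The ratio to PBS was 0.807 to 0.929 on the 4 dates. The Fxyd2 call was lost without PBS library 1 (adjusted p = 0.0872), PBS library 4 (0.126), BMDM-HG-exo library 2 (0.0859) or BMDM-HG-exo library 3 (0.0586), and with DESeq2 (0.185). The Sgk1 call held in 5 of the 12 fits that left out a library and was lost without PBS library 2 (limma adjusted p = 0.15), 3 (0.0577) or 4 (0.0582), without any single BMDM-HG-exo library (0.0569 to 0.132) and under quantile normalization (0.0858). Without a trend neither gene was called (limma adjusted p = 0.3 for Fxyd2 and 0.149 for Sgk1).

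For Slc5a3 the difference between BMDM-HG-exo and PBS had the opposite sign. The gene had 2715, 2027, 2278 and 2518 normalized counts with PBS, 2684, 2069, 2193 and 2442 with BMDM-NG-exo and 3213, 2641, 2439 and 2999 with BMDM-HG-exo. The 3 groups overlapped in level, and in each of them library 1, of the same date, was the highest. Within dates, however, BMDM-HG-exo was above PBS on 4 of 4 dates, at 1.07 to 1.30 times, and above BMDM-NG-exo on 4 of 4 dates, at 1.11 to 1.28 times. Against PBS the log2 difference was 0.24 (standard error 0.0786, limma adjusted p = 0.0632), which missed the threshold. With the date as a block it was called (limma adjusted p = 9.41e-04), where 5.62% of all genes were, and it was also called without PBS library 1 (0.0182), BMDM-NG-exo library 1 (0.0422) or BMDM-HG-exo library 3 (0.0169) and among genes with a mean of at least 50 (0.0491). DESeq2 did not call it (adjusted p = 0.274). Between BMDM-NG-exo and PBS the log2 difference of Slc5a3 was -0.02 (95% interval -0.18 to 0.14).

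Between both exosome groups the question is whether the medium of the donor cells matters for the recipient. By the paper's methods the donors of BMDM-HG-exo were given added glucose and those of BMDM-NG-exo mannitol. Effects of donor glucose and donor mannitol can therefore not be told apart here. In fits that leave out the date, BMDM-HG-exo against BMDM-NG-exo called 0 of the 9 members with limma, edgeR and DESeq2. There limma called 0.0139% of all genes. At an unadjusted p under 0.05 limma had 2 of the 9 members, Slc6a12 and Slc5a3, both with a higher mean with BMDM-HG-exo, where 6.54% of all genes passed. Slc6a12 had 390, 196, 255 and 279 normalized counts with BMDM-HG-exo, above the BMDM-NG-exo library of the same date on 4 of 4 dates, at 1.25 to 1.76 times. Its log2 difference was 0.61 (standard error 0.171, 95% interval 0.26 to 0.96, limma adjusted p = 0.351, or 0.118 with the date as a block), and DESeq2 gave it no adjusted p. For Slc5a3 the log2 difference was 0.27 (standard error 0.0786, limma adjusted p = 0.409), and with the date as a block it was called (limma adjusted p = 0.0113), where 0.153% of all genes were. For Fxyd2 the difference was 0.07 (95% interval -0.11 to 0.26), and for Sgk1 it was -0.02 (95% interval -0.13 to 0.08). Slc6a12 and Fxyd2 thus parted here: with BMDM-HG-exo, Slc6a12 had a log2 difference from PBS of -0.14 (95% interval -0.49 to 0.20), whereas Fxyd2 was called as lower. The difference between these 2 genes was not tested.

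BMDM-HG-exo was also set against PBS and BMDM-NG-exo together, as the study combined its controls. In fits that leave out the date, 0 of the 9 members were called with limma, edgeR and DESeq2. There limma called 0.201% of all genes. Of the 9, Slc5a3 alone had an unadjusted p under 0.05 with limma, a share near the 10.5% of all genes that passed. Its mean was 2823 ± 348.5 normalized counts (SD, n = 4) against 2366 ± 265.3 (SD, n = 8), a log2 difference of 0.25 (standard error 0.0739, limma adjusted p = 0.138), and with the date as a block it was called (limma adjusted p = 0.0195), where 0.160% of all genes were. The comparisons of the exosome experiment share libraries, so that their values are not independent of each other.

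**Figure D3:**
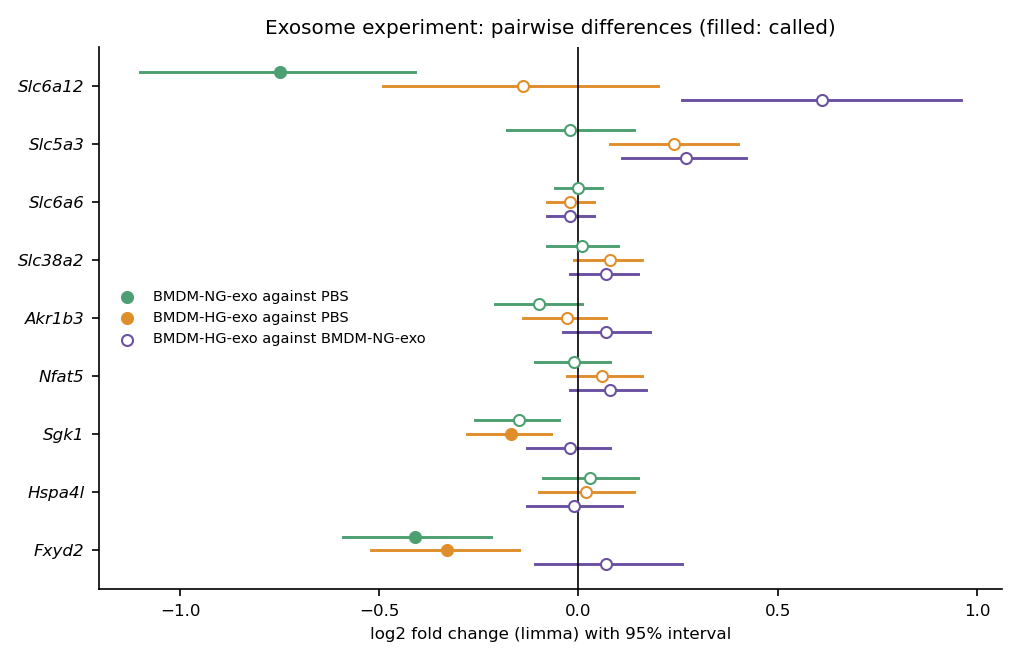
Log2 fold change of the 9 genes in the 3 pairwise comparisons of the exosome experiment (limma, 12 libraries), with 95% intervals; filled points were called. Filled points are Slc6a12 and Fxyd2 for BMDM-NG-exo against PBS and Fxyd2 and Sgk1 for BMDM-HG-exo against PBS, and the intervals of Slc6a6, Hspa4l, Nfat5, Akr1b3 and Slc38a2 include 0.

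The other 5 members were called in none of the exosome comparisons. Slc6a6 had log2 differences of at most 0.02 in size in the 3 pairwise comparisons, with 95% intervals within -0.08 and 0.06. Nfat5 had -0.01 for BMDM-NG-exo against PBS (95% interval -0.11 to 0.08) and 0.08 for BMDM-HG-exo against BMDM-NG-exo (95% interval -0.02 to 0.17). For Slc38a2 the log2 difference between BMDM-HG-exo and PBS was 0.08, with a limma adjusted p of 0.374. Akr1b3 had a log2 difference of -0.10 between BMDM-NG-exo and PBS (95% interval -0.21 to 0.01), and Hspa4l had 0.03 (95% interval -0.09 to 0.15). The median log2 difference of the 9 members was -0.0215 for BMDM-NG-exo against PBS, -0.0195 for BMDM-HG-exo against PBS and 0.0669 for BMDM-HG-exo against BMDM-NG-exo, beside 0.0045, 0.0034 and -0.0011 over all genes tested.

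**Figure D4:**
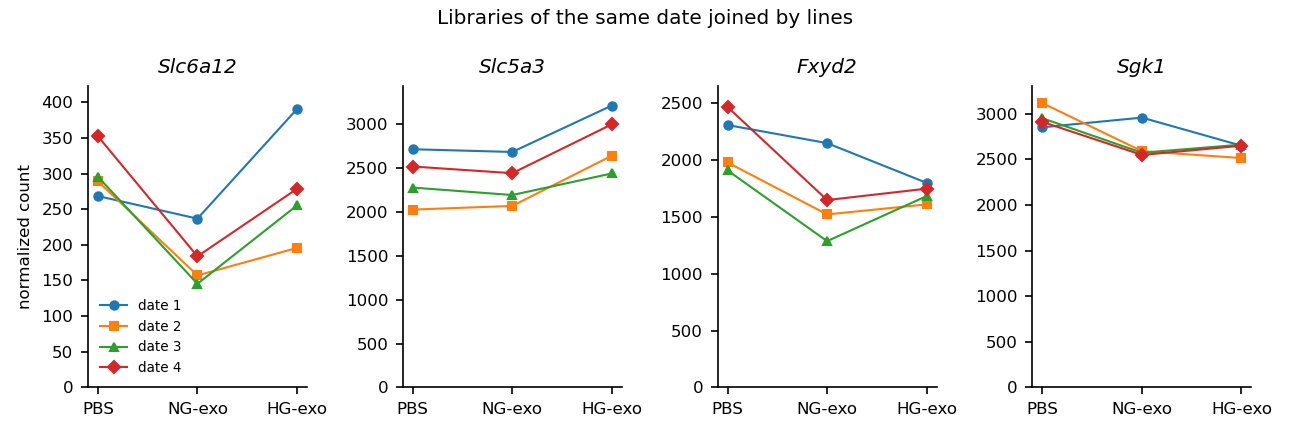
Normalized counts of Slc6a12, Slc5a3, Fxyd2 and Sgk1 in the 12 libraries of the exosome experiment, by treatment, with lines joining the libraries of each of the 4 dates; each axis starts at 0. The Slc5a3 lines end highest with BMDM-HG-exo on all 4 dates, and the Slc6a12 lines all dip at BMDM-NG-exo.

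Some libraries stood at the top of their group in several members. BMDM-NG-exo library 1 and BMDM-HG-exo library 1, which share a date, were each the highest of their group in 5 of the 9 members, among them Slc6a12, Slc5a3, Slc38a2 and Fxyd2 in both. PBS library 1 of the same date was the highest of its group in 3 members, and for Slc6a12 it was the lowest.

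Further genes of osmolyte handling and tonicity were taken from 7 lists of 118 genes, of which 87 were tested between high and normal glucose with limma. Of these, 12 were higher and 8 lower in high glucose, and 67 were not called. This is 13.8% higher and 9.20% lower, beside 7.74% and 5.53% of all genes, or 23.0% called beside 13.3%. The lists were chosen with earlier results of these data known, so nothing is read from these differences in share. For the same reason, the adjusted p-values of list genes in this comparison are no independent test. The median log2 fold change of the 87 was 0.0032, near that of all genes. Quantile normalization gave 10 higher and 12 lower, and a fit without a trend gave 6 and 2. The count of lower genes was 5 without normal glucose library 5 and 4 without high glucose library 4 or 6.

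Among other osmolyte and amino acid carriers, 1 of 9 tested genes rose and 3 fell. The choline carrier gene Slc44a1 rose by a log2 fold change of 0.19 (standard error 0.0422, limma adjusted p = 0.00199). Slc16a6, a member of the monocarboxylate carrier family, fell by 0.38 (limma adjusted p = 6.15e-05). The proton-coupled amino acid carrier gene Slc36a1 and Slc3a2, the partner chain of several amino acid exchangers, had log2 fold changes of -0.18 and -0.14 (limma adjusted p = 0.0115 and 0.0314). The carriers on this list thus did not move in the direction of Slc6a12 and Slc5a3 as a group.

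In osmolyte synthesis and breakdown, 2 of 16 tested genes rose and 3 fell. Akr1b8, a relative of aldose reductase, rose from 1734 ± 117.7 to 2361 ± 99.43 normalized counts (SD, n = 4 each), a log2 fold change of 0.45 (standard error 0.0562, limma adjusted p = 2.62e-07). That difference had a larger estimate than the 0.25 of Akr1b3, which was not tested against it. Akr1a1, an aldehyde reductase, rose by 0.10 (limma adjusted p = 0.0367). Gpcpd1 and Gdpd5, which encode enzymes that break down the osmolyte glycerophosphocholine, fell by 0.25 and 0.36 on the log2 scale (limma adjusted p = 1.14e-04 and 0.00905). Aldh7a1, an aldehyde dehydrogenase that forms betaine, fell by 0.24 (limma adjusted p = 0.049) and is named outside the rule, after its value was seen.

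None of the 16 tested volume-regulated channels, cotransporters and their kinases was called, and their log2 fold changes ran from -0.117 to 0.197. Of 15 tested NFAT5 relatives, kinases and partners, only the p38 kinase gene Mapk14 was called, higher by 0.14 (limma adjusted p = 0.0137).

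Of the list of other genes reported to rise with tonicity, 6 of 16 tested genes were higher and 1 was lower. The glucose carrier gene Slc2a1 rose by 0.54 (standard error 0.0751, limma adjusted p = 1.66e-06), and the cytokine gene Tnf by 0.74 (standard error 0.113, limma adjusted p = 8.64e-06). S100a4, a calcium-binding protein gene, rose by 0.48 and the HSP110 chaperone gene Hsph1 by 0.32 (limma adjusted p = 1.03e-05 and 5.65e-05). Hsph1 thus was called where its relative Hspa4l had a log2 difference of -0.06. The other called genes, named after their values were seen, were Nqo1 (0.67) and Hspa4 (0.11) as higher and Gadd45a (-0.41) as lower. These genes also respond to other signals, among them inflammation and oxidative stress. In the SGK list, 11 genes were tested: Fkbp5, a glucocorticoid target, rose by 0.28 and Ndrg1, whose product SGK1 phosphorylates, fell by 0.13 (limma adjusted p = 0.0389 and 0.0463).

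**Figure D5:**
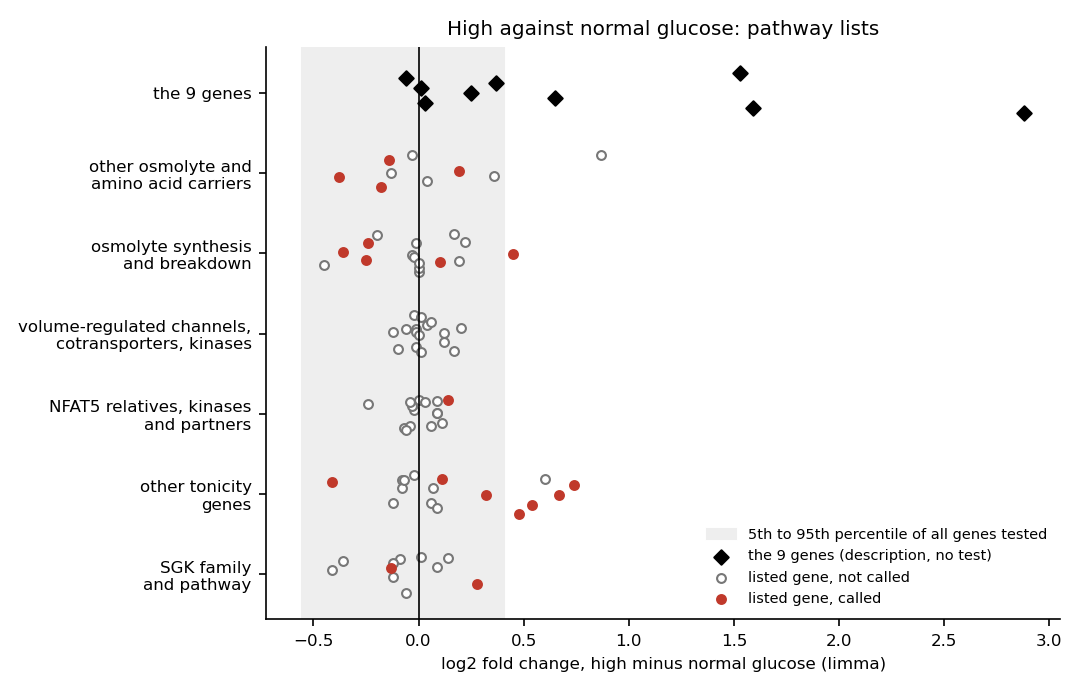
Log2 fold change in high against normal glucose (limma, 4 libraries each) of the 9 genes (black diamonds, a description) and of the tested genes on 6 of the 7 lists (circles, filled where called); the grey band spans the 5th to 95th percentile of all genes tested. Slc6a12, Slc5a3 and Fxyd2 lie far to the right of the band, whereas most listed genes lie inside it.

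With exosomes, few genes of these lists were called. Against PBS, BMDM-NG-exo called 4 of the 87 and BMDM-HG-exo called 3, beside the 3.0% and 4.84% of all genes given above, and the other 2 comparisons called 0 with limma. The creatine carrier gene Slc6a8 was higher with both, by a log2 fold change of 0.19 for BMDM-NG-exo and 0.23 for BMDM-HG-exo (limma adjusted p = 0.0307 and 0.00307). Ndrg1 was higher with both as well, by 0.17 and 0.20 (limma adjusted p = 0.0376 and 0.0062). Tnf fell by 0.47 and Pnpla6, which forms glycerophosphocholine, by 0.24 with BMDM-NG-exo (limma adjusted p = 0.0203 and 0.00984). Nfatc2, a calcium-regulated relative of Nfat5, fell by 0.17 with BMDM-HG-exo (limma adjusted p = 0.0106).

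For the 3 members whose group means spanned more than 1 on the log2 scale, the genes with the most similar pattern over the 20 libraries were found by the root mean square (RMS) difference of log2 values centred on each gene's mean, among 11718 genes with a mean of at least 50. Nearest to Slc6a12 was Slco4a1, an organic anion carrier gene, at an RMS difference of 0.392, followed by Slc5a3 at 0.534 and Fxyd2 at 0.539. Slc6a12 itself varied about its mean with an RMS of 1.00. Slco4a1 had mean normalized counts of 302.0 in normal glucose, 2519 in high glucose, 1475 with PBS, 989.4 with BMDM-NG-exo and 1474 with BMDM-HG-exo. Nearest to Slc5a3 were Gclm (0.247), a glutathione synthesis gene, Pla2g7 (0.263), which encodes a secreted phospholipase, and its overlapping neighbour Mrps6 (0.277). Mrps6 had mean normalized counts of 314.6 in normal glucose and 612.1 in high glucose. Nearest to Fxyd2 were the complement gene C3 (0.271), the zinc carrier gene Slc39a4 (0.305) and Alox5 (0.305), which encodes a lipoxygenase. The libraries shared by these values are the same 20, so the measure is a description. Among them are the glucose libraries on whose difference the members were chosen. Nothing is therefore read from members lying near each other.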

How the data were processed

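The long RNA libraries of mouse BMDM, 5 groups of 4, were used. The study made stranded total RNA libraries, sequenced them on a NovaSeq, trimmed the reads, mapped them with STAR and counted them with FeatureCounts, taking read 2 as sense. The submitters' processing notes for these libraries also name cutadapt and the build GRCm38. The deposited signal values are gene counts that the authors scaled library by library with the median-ratio factors of DESeq2, and they are called normalized counts here. The annotation used for counting is not given in the sources used here. GENCODE M21 gave names and coordinates, and 14421 genes matched. Whole reads were recovered from the smallest step of each column (tolerance 0.02), and 100% of the values came out whole. The step of PBS 4 and that of BMDM-HG-exo 1 lie within 1% of 1, so these 2 columns alone do not show whether they were scaled. Totals ran from 34016445 to 56310712 reads, which sets the precision of low genes such as Slc6a12.

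Log2 of the normalized count plus 1 was fitted with limma 3.58.1 in R 4.3.3 (eBayes with trend, two-sided tests, Benjamini-Hochberg adjustment) for genes with a mean of at least 10, so that fold changes of low genes are understated. Each experiment had its own fits, with 8 libraries for glucose and 12 for exosomes, the latter as BMDM-HG-exo against 8 controls and as 3 groups. Calls needed an adjusted p-value under 0.05, and with exosomes also a log2 fold change of 0.15 or more in size. Alternatives were other pseudocounts and filters, TMM factors, quantile normalization, no trend, edgeR 4.0.16, DESeq2 1.42.0, a replicate block, and each library left out; the count models used the recovered reads. The labels give the exosome libraries 4 dates shared across groups, so these libraries are paired by day and the block is the date. Deviations from the group means of same-date libraries, over all genes, had a mean correlation of 0.0118 (12 pairs). For libraries of different dates it was -0.00392 (36 pairs). Single genes can depend more on the date. For Slc5a3 in BMDM-HG-exo against BMDM-NG-exo, the standard error was 0.0786 without the block and 0.0495 with it. Adjusted p-values with the block are given where they change a call. The fits were tested on simulated data.

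The members and lists were chosen with earlier results of these data known. Named were all 9 members, up to 4 called genes per list with the smallest p-values in high against normal glucose, list genes called in an exosome comparison, and for members spanning more than 1 on the log2 scale the 3 most similar genes. The result for 1 list is not reported here. Exons for levels per kilobase were merged over the transcripts of a gene. Python 3.11.15, pandas 2.3.3 and matplotlib 3.10.9 made the tables and figures.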

Additional observations from a re-analysis of the deposited data

Results flagged for a closer look

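In 3 of the 45 sets of 4 libraries formed by the 9 genes and 5 groups, the highest or lowest library stood apart from the others by Dixon's criterion, which chance meets in about 1 of 20 sets. Slc38a2 in BMDM-HG-exo library 1 had 5376 normalized counts, against 4994 to 5023 in the other 3. Sgk1 in BMDM-NG-exo library 1 had 2957, against 2548 to 2589. Sgk1 in BMDM-HG-exo library 2 had 2514, against 2649 to 2661. The Sgk1 call for BMDM-HG-exo against PBS was lost without the latter library (limma adjusted p = 0.132), and Sgk1 was called for BMDM-NG-exo against PBS without BMDM-NG-exo library 1 (limma adjusted p = 0.0216).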

How the results depend on the processing

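The median log2 fold change of the 9 members in high against normal glucose was 0.34 to 0.37 under the 10 alternatives and 0.34 to 0.41 with a library left out. Slc6a6 turned from 0.03 to -0.11 under quantile normalization. The 12 higher and 8 lower list genes became 6 and 2 without a trend, and ran from 8 to 13 and from 4 to 6 with a library left out. Library numbers are shared by only 2 libraries of each glucose group and pair nothing by the labels. With them as a replicate block the list counts were 7 higher and 3 lower, the log2 fold change of Slc6a12 was 2.39, that of Slc38a2 0.53 and that of Fxyd2 1.21, and same-numbered libraries had a mean correlation of 0.00844 (2 pairs).

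Against PBS, the 2 members called for BMDM-NG-exo became 1 with DESeq2 and 0 without a trend, and 1 to 3 with a library left out. The 2 called for BMDM-HG-exo became 1 with DESeq2, 1 under quantile normalization and 0 without a trend, and 0 to 3 with a library left out. For the other 2 comparisons, the count of 0 became 1 in each with the date block, that member being Slc5a3, and stayed 0 with any library left out. Slc5a3 was also called for BMDM-HG-exo against PBS with the block, which changed no other call of a member. In low genes depth limits the estimates: Slc6a12 had as few as 45 reads in a library.

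Counts over all genes also moved. High against normal glucose called 1914 genes, 654 without a trend and 788 with the block. BMDM-NG-exo against PBS called 432 and, without a trend, 95, and BMDM-HG-exo against PBS called 698 and 295. Against both controls BMDM-HG-exo called 29, but 47 at a pseudocount of 5, 127 with DESeq2, 19 under quantile normalization and 1 without a trend, and 1 to 204 with a library left out. Against BMDM-NG-exo it called 2, and 1 to 22 under the alternatives. The cause of these changes was not tested.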
